A study of Mus musculus with 10 samples.

Results

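The comparison described here sets all knockout mouse embryonic fibroblast (MEF) libraries of the series against all wild-type libraries in 1 model, with the mouse family as an additive term, and so describes the average effect of losing either of the MiDAC scaffold proteins. All 10 of the 10 libraries entered it: 3 MIDEAS-/- and 2 DNTTIP1-/- libraries on the knockout side, against 3 MIDEAS+/+ and 2 DNTTIP1+/+ libraries on the wild-type side. MEFs are connective tissue cells grown from the minced body of an embryo, here of the C57BL/6 strain (C57BL/6J in the study's methods) at embryonic day 13.5. The MIDEAS-/- and DNTTIP1-/- lines are homozygous for constitutive alleles, each made with CRISPR-Cas9 by a small deletion in the second exon that leaves a premature stop codon, and the wild-type lines were established from embryos of the same 2 mutant mouse lines. No treatment is given for any library. The labels do not say whether each library came from a separate embryo; the study describes the knockout libraries as independent lines. The p-values measure the spread between these libraries. The lines were grown without the head, liver and heart of the embryo, and such cultures can hold several kinds of stromal cell. The values are normalized counts (the reads of a gene after division by the size factor of its library), and the common effect is the difference, knockout minus wild type, of log2(normalized count + 1). A gene is called where its Benjamini-Hochberg adjusted p from limma was under 0.1 across the 16227 genes that averaged at least 10. SE is the standard error of a log2 fold change. Libraries of a group are listed in the order of their replicate numbers. Of the genes named here, Sept4, Ntn3, Igf2, Hgf and Il31ra share exon sequence with another gene on the same strand, and Dnttip1, Nefl, Nefm, Tril, Sfrp2, Wnt11, Adamts8, Adamts9, Dchs1, Pcdh10, Ephb4, Col6a6, Kcna6, Ebf3, Plagl1, Gli3, Krt7, Des, Ica1l, Sept6, Fgfr3, Hmx1, Epyc, Il27ra, Abcc9, Cebpa, Cdkn1c, Notum, Slc2a1, Nusap1, Tcf7l1, Idi1 and Igf2 with one on the other strand, so their counts are less certain.

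MiDAC (the mitotic deacetylase complex) is a class I histone deacetylase complex, in which the enzymes HDAC1 and HDAC2 are held by 2 scaffold proteins, MIDEAS and DNTTIP1. Histone deacetylases remove acetyl groups from lysines, and a loss of acetylation at a promoter or enhancer usually goes with less transcription. HDAC1 and HDAC2 also serve the NuRD, CoREST, SIN3 and other complexes, whereas MIDEAS and DNTTIP1 belong to MiDAC, so that each knockout takes away a different subunit of the same complex.

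The libraries held between 12339970 and 19761295 reads. MIDEAS-/- replicate 1 stood apart, with 9.38% of its reads in its 10 most abundant genes, against 5.14% to 6.50% in the other libraries. Fibroblast genes were high in every library: the 12 fibroblast markers (collagens, Vim, Pdgfrb, Fn1 and others) summed to between 59410 and 73692 normalized counts in the knockouts and between 63570 and 77261 in the wild types. Y-linked transcripts were seen in 3 libraries (DNTTIP1-/- replicate 1, MIDEAS+/+ replicate 1 and DNTTIP1+/+ replicate 1), whose Y-linked sums lay between 3502 and 4245 normalized counts, against at most 21.9 in the other 7, which include all 3 MIDEAS-/- libraries. Calls with the Y-linked level as a covariate, and in the 7 libraries alone, are given with the counts. After the mean of each family was subtracted, the first principal component held 35.8% of the variance. On it, MIDEAS-/- lay at -63.7, -26.7 and -23.8 and DNTTIP1-/- at -39.1 and 7.93, against 23.3, 59.6 and 31.2 for MIDEAS+/+ and -14.1 and 45.3 for DNTTIP1+/+. Knockouts and wild types were thus apart in the MIDEAS family, and DNTTIP1-/- replicate 2 and DNTTIP1+/+ replicate 1 lay on the other group's side of each other.

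**Figure D1:**
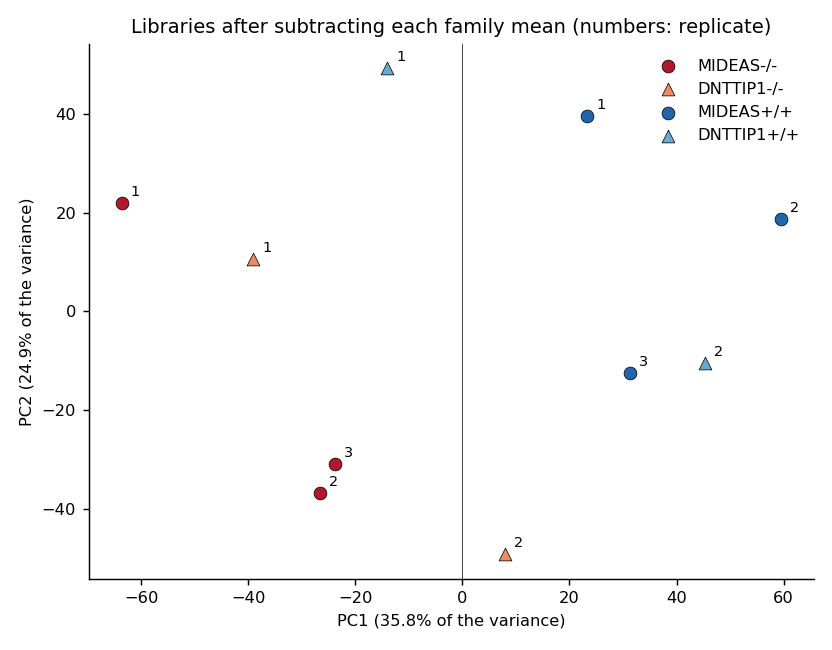
Principal components of the 10 libraries over the tested genes, after the mean of each family was subtracted; the axes give the component and its share of the variance, colours and shapes give the groups, and numbers the replicates. The first component (35.8%) puts all 3 MIDEAS-/- libraries on the opposite side from the 3 MIDEAS+/+ libraries, while DNTTIP1-/- replicate 2 (7.93) lies to the right of DNTTIP1+/+ replicate 1 (-14.1).

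Between knockouts and wild types 1327 of the 16227 tested genes (8.18%) were called, and more genes rose than fell. The knockouts were higher for 845 genes (5.21% of the genes tested) and lower for 482 (2.97%). Among the higher genes the median common log2 fold change was 1.04, with 441 genes at 1 or more and 137 at 2 or more. Among the lower genes the median was -0.75, with 174 genes changed by 1 or more and 42 by 2 or more. The median over all tested genes was -0.02. Most called genes were not silent in wild-type cells: the median of the wild-type means was 190 normalized counts for the higher genes, and 59 of these had a wild-type mean under 10. Of the called genes, 1270 were protein coding. All 5 knockout libraries lay above all 5 wild-type libraries for 468 of the 845 higher genes (this held for 3.27% of all tested genes), and below all of them for 239 of the 482 lower genes (2.06%). Beyond the wild types of their own family, in both families, lay the knockouts for 633 of the higher genes (5.09% of all tested genes) and 350 of the lower genes (3.69%). The adjusted p of the last gene inside the threshold was 0.09996 and that of the first outside it 0.10.

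The 2 families contributed unequally, since the additive fit gave 60% of the weight to the 6 libraries of the MIDEAS family and 40% to the 4 of the DNTTIP1 family. All called genes had the same sign in both families, which the choice of genes in part fixes; over all tested genes the share was 61.4%. In the MIDEAS family the called genes had a median own-family log2 fold change of 1.14 (higher genes) and -0.86 (lower genes). In the DNTTIP1 family these medians were 0.82 and -0.53. A difference between the families, tested as an interaction, was found by limma for no gene (453 genes had an unadjusted p under 0.05). edgeR also found none (435 at an unadjusted p under 0.05), and DESeq2 found 12. Within the 10-library fit of both families, the MIDEAS difference alone was called for 5.65% of genes and the DNTTIP1 difference for 0.0308%. Fitted from its own libraries only, the MIDEAS family gave 952 calls, and the DNTTIP1 family none (1294 genes at an unadjusted p under 0.05 from limma).

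The number of calls depended on single libraries. It lay between 729 and 1854 with any 1 library removed, and was more than 1.5 times smaller without MIDEAS-/- replicate 2 (729 genes), MIDEAS-/- replicate 3 (877), MIDEAS+/+ replicate 1 (861), MIDEAS+/+ replicate 2 (794), DNTTIP1-/- replicate 1 (869) or DNTTIP1+/+ replicate 2 (745). Without MIDEAS-/- replicate 1, which stood apart, 1740 genes were called, 1124 of them higher. Within the 7 libraries without Y-linked reads, 980 genes were called, 630 of them higher, and 805 of these calls were shared with the fit of all libraries. With the summed Y-linked level as a covariate, 1827 genes were called, 1124 higher and 703 lower, of which 1302 were shared. Of the genes named below, Angptl4, Angptl7, Cdkn1c, Cnn1, Des, Dkk1, Fgf1, Fgfr3, Fzd9, Gli2, Gli3, Idi1, Igf2, Igfbp5, Notum, Ntn1, Peg3, Spc25, Tcf7, Wnt10b, Wnt2 and Wnt6 were not called in the 7 libraries. All of these were called with the covariate. Lgr4 was not called in the 7 libraries either, where 5 Wnt receptor genes rose.

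**Figure D2:**
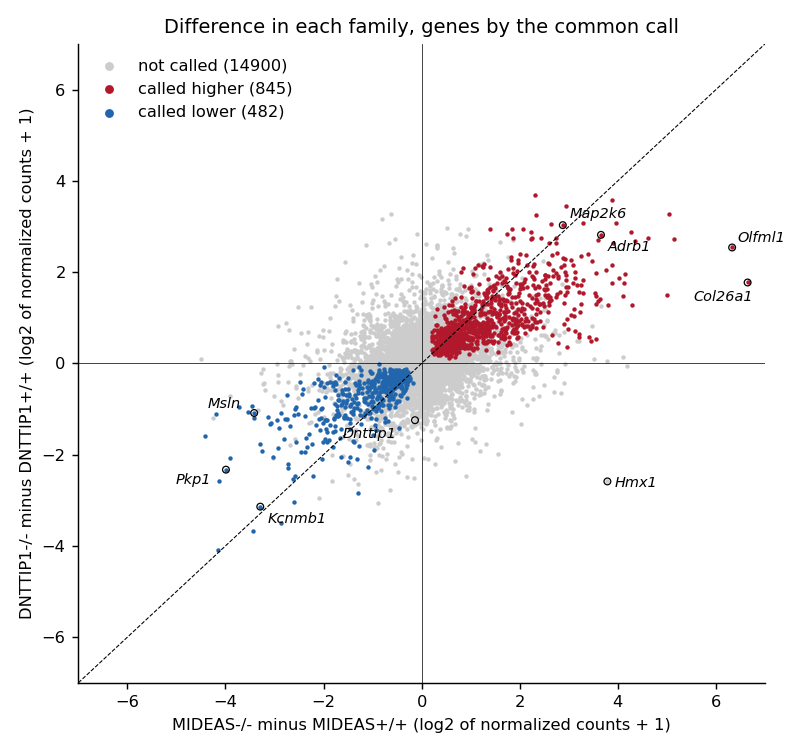
Knockout minus wild type in the MIDEAS family (horizontal axis) and in the DNTTIP1 family (vertical axis), both as log2 of normalized counts + 1, for the 16227 tested genes; colours give the call for the common effect and the dashed line marks equal differences. Called genes lie in the 2 quadrants of equal sign, and Hmx1 (3.79 in the MIDEAS family, -2.59 in the DNTTIP1 family) lies far outside them.

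The genes of the complex itself were examined first. Dnttip1 (ENSMUSG00000017299, mm10 chromosome 2, 164745983 to 164768607) had 197 and 173 normalized counts in DNTTIP1-/- lines, against 434 and 443 in DNTTIP1+/+ lines. In the other family it had 414, 368 and 408 in MIDEAS-/- MEFs, against 436, 436 and 434 in MIDEAS+/+ MEFs. The transcript of the deleted gene was thus lower by less than all of its reads in its own family, and it had the second smallest p for a difference between the families (unadjusted p = 0.00028 from limma). Gm11457, on the opposite strand, shares exon sequence with Dnttip1. Elmsan1, the gene that encodes MIDEAS (ENSMUSG00000042507, chromosome 12, 84149176 to 84218881), had 1038, 1728 and 1590 normalized counts in MIDEAS-/- MEFs, against 1272, 1332 and 1576 in MIDEAS+/+ MEFs. These ranges overlap, so the count of this transcript, whose small deletion leaves the rest to be counted, does not check the labels. In DNTTIP1-/- MEFs it had 1453 and 2095, against 973 and 1246 in DNTTIP1+/+ lines, and its common log2 fold change of 0.28 (SE 0.18, limma adjusted p = 0.456) was not called.

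Of the other members of the complex, Trerf1 rose. It encodes TRERF1, a zinc finger protein related to MIDEAS. It had 886, 1144 and 1152 normalized counts in MIDEAS-/- and 996 and 1133 in DNTTIP1-/- lines, against 682, 564 and 806 in MIDEAS+/+ and 645 and 643 in DNTTIP1+/+ lines. Every knockout library lay above every wild-type library, and the common log2 fold change was 0.67 (SE 0.12, limma adjusted p = 0.0105). The enzymes had log2 fold changes of -0.03 (Hdac1, limma adjusted p = 0.918) and 0.11 (Hdac2, adjusted p = 0.565). Zfp541, the testis relative of MIDEAS, had at most 4.46 normalized counts in any library and was not tested. None of the 34 tested genes of the other class I HDAC complexes (NuRD, SIN3, CoREST, NCoR/SMRT) was called, against 8.18% of all tested genes. Their median log2 fold change was -0.02.

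Map2k6 and Adrb1 were among the 3 genes with the smallest p for the common effect. Map2k6 encodes MKK6, the kinase that activates p38 MAP kinases. It had 753, 574 and 679 normalized counts in MIDEAS-/- and 885 and 1196 in DNTTIP1-/- lines, against 119, 101 and 59.5 in MIDEAS+/+ and 153 and 102 in DNTTIP1+/+ lines. The groups did not come near each other, with a fold change of 7.67 (log2 2.94, SE 0.20, limma adjusted p = 0.000253). Adrb1, the beta-1 adrenergic receptor through which heart rate and contraction respond to noradrenaline, had 183, 192 and 183 in MIDEAS-/- and 213 and 272 in DNTTIP1-/- lines, against 15.6, 10.2 and 16.4 in MIDEAS+/+ and 42.2 and 26.3 in DNTTIP1+/+ lines. The lowest knockout library lay far above the highest wild type, and the fold change was 9.99 (log2 3.32, SE 0.25, limma adjusted p = 0.000253).

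The promoters of 2 genes that rose and 2 that fell are shown so that their sequences can be read beside these values. They are the RefSeq windows (GRCm38.p6, 250 bases before to 50 after the start, read 5′ to 3′ on the gene's strand) of the called genes with the smallest p in each direction that were named by a fixed rule and had a single window within 1000 bases of the annotated gene start. Adrb1 is chr19:56721867-56722166 on the + strand, Ntrk2 chr13:58806319-58806618 on the + strand, Kcnmb1 chr11:33962763-33963062 on the + strand and Sfn chr4:133602119-133602418 on the - strand. Capitals mark the GC box GGGCGG or its reverse CCGCCC, found in 35.7% of all 32851 windows; TATAAA and its reverse TTTATA, found in 13.6% of windows, were also searched.
Adrb1: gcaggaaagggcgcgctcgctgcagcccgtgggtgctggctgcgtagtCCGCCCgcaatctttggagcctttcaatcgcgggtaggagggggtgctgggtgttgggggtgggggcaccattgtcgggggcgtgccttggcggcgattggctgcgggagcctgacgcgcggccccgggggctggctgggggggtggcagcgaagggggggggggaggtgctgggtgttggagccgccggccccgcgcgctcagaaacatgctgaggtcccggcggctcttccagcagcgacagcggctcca
Ntrk2: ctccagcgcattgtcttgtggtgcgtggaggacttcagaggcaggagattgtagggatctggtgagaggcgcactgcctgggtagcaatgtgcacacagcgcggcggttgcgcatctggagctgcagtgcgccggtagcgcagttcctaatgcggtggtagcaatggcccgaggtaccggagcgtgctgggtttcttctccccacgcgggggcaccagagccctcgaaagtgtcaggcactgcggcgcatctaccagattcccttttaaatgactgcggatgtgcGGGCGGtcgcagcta
Kcnmb1: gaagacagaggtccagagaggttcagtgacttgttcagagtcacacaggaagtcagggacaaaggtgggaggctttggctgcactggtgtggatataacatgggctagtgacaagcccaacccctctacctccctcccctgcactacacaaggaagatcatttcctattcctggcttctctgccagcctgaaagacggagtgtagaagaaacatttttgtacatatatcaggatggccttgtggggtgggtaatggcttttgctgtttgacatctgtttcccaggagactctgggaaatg
Sfn: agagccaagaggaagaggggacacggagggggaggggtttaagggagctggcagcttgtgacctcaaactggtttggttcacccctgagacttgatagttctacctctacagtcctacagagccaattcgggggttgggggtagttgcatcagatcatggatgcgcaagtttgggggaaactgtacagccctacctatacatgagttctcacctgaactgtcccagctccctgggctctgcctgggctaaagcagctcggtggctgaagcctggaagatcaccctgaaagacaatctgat
The windows of Adrb1 and Ntrk2 each held 1 GC box, with 28 and 23 CG dinucleotides and a GC content of 72.3% and 61.3%. Those of Kcnmb1 and Sfn held no GC box, with 1 and 4 CG dinucleotides and a GC content of 49.7% and 54.0%. None of these windows held TATAAA or TTTATA, and the median GC content of all windows was 52.7%. A window was present for 69.5% of the higher and 72.6% of the lower genes, against 67.9% of all tested genes. The called genes were not compared as groups.

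Ntrk2 encodes TrkB, the receptor tyrosine kinase for brain-derived neurotrophic factor. It had 688, 452 and 316 normalized counts in MIDEAS-/- and 512 and 329 in DNTTIP1-/- lines, against 26.7, 17.4 and 50.8 in MIDEAS+/+ and 55.9 and 40.9 in DNTTIP1+/+ lines. The lowest knockout library thus lay well above the highest wild-type library (log2 fold change 3.60, SE 0.33, limma adjusted p = 0.00107).

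The 12 largest increases among called genes with a mean of at least 50 and no overlap within either family began with Olfml1. Olfml1, an olfactomedin-like secreted protein, had 686, 412 and 480 normalized counts in MIDEAS-/- and 580 and 221 in DNTTIP1-/- lines, against 13.4, 0 and 17.2 in MIDEAS+/+ and 205 and 17.5 in DNTTIP1+/+ lines. One wild-type library, DNTTIP1+/+ replicate 1, came close to the lowest knockout (log2 fold change 4.81, SE 1.00, limma adjusted p = 0.0234). Col26a1, a collagen chain, had 596, 470 and 241 in MIDEAS-/- and 140 and 174 in DNTTIP1-/- lines, against 6.69, 0 and 7.82 in MIDEAS+/+ and 43.2 and 46.8 in DNTTIP1+/+ lines (log2 fold change 4.70, SE 0.90, limma adjusted p = 0.0179). Its wild-type level was higher in the DNTTIP1 family, and its difference was 6.65 in the MIDEAS and 1.77 in the DNTTIP1 family (unadjusted p = 0.0018 from limma for the difference between families, not called after adjustment).

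Tril, an accessory protein of Toll-like receptor signalling, was nearly constant among the knockouts. It had 613, 615 and 650 normalized counts in MIDEAS-/- and 584 and 611 in DNTTIP1-/- lines, against 20.1, 14.3 and 90.7 in MIDEAS+/+ and 125 and 67.3 in DNTTIP1+/+ lines (log2 fold change 3.68, SE 0.48, limma adjusted p = 0.00376). Il31ra, the receptor subunit that binds interleukin-31, had 49.6, 146 and 95.0 in MIDEAS-/- and 92.7 and 80.9 in DNTTIP1-/- lines, against 0, 0 and 14.9 in MIDEAS+/+ and 8.44 and 17.5 in DNTTIP1+/+ lines (log2 fold change 4.18). Besides Adrb1 and Ntrk2, the others of the 12 were Sostdc1 (log2 fold change 3.87), Nefl (3.76), Adamts8 (3.40), Col6a6 (3.24), Otor (3.17) and Slc26a7, an anion transporter (3.07). Of these 12 genes, Sostdc1 had a wild-type library (60.4 normalized counts in DNTTIP1+/+ replicate 2) within the range of the knockouts (22.7, 67.8 and 80.1 in MIDEAS-/-, 129 and 198 in DNTTIP1-/- lines).

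Kcnmb1 had the largest decrease among called genes chosen in the same way. It encodes the beta-1 subunit of the large-conductance calcium-activated potassium channel of smooth muscle. It had 10.3, 28.6 and 17.8 normalized counts in MIDEAS-/- and 6.18 and 24.1 in DNTTIP1-/- lines, against 118, 418 and 117 in MIDEAS+/+ and 84.4 and 163 in DNTTIP1+/+ lines. The differences in the 2 families were close, -3.29 and -3.14 on the log2 scale (common log2 fold change -3.23, SE 0.48, limma adjusted p = 0.00582). Mapk13, the delta isoform of p38, had 181, 53.2 and 18.8 in MIDEAS-/- and 122 and 44.8 in DNTTIP1-/- lines, against 454, 713 and 332 in MIDEAS+/+ and 458 and 207 in DNTTIP1+/+ lines (log2 fold change -2.64, limma adjusted p = 0.0241). Msln, a surface protein of mesothelium, had 26.8, 19.3 and 28.7 in MIDEAS-/- and 128 and 145 in DNTTIP1-/- lines, against 282, 357 and 200 in MIDEAS+/+ and 316 and 267 in DNTTIP1+/+ lines (log2 fold change -2.48, limma adjusted p = 0.00811). Its decrease was larger in the MIDEAS family (-3.42) than in the DNTTIP1 family (-1.09), with an unadjusted p for that difference of 0.00029, which was not called after adjustment. Others with large decreases were Alkal1, a ligand of the ALK receptor (-2.50), Angptl7 (-2.44), Macc1 (-2.26), Aqp5, a water channel (-2.16), Abcg1, a cholesterol exporter (-2.06), Fam110c (-1.96), Ica1l (-1.94) and Rhbdl2, a rhomboid protease (-1.92). The calls of Angptl7 and Ica1l were lost in 2 and 4 of the 10 fits that left out 1 library.

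**Figure D3:**
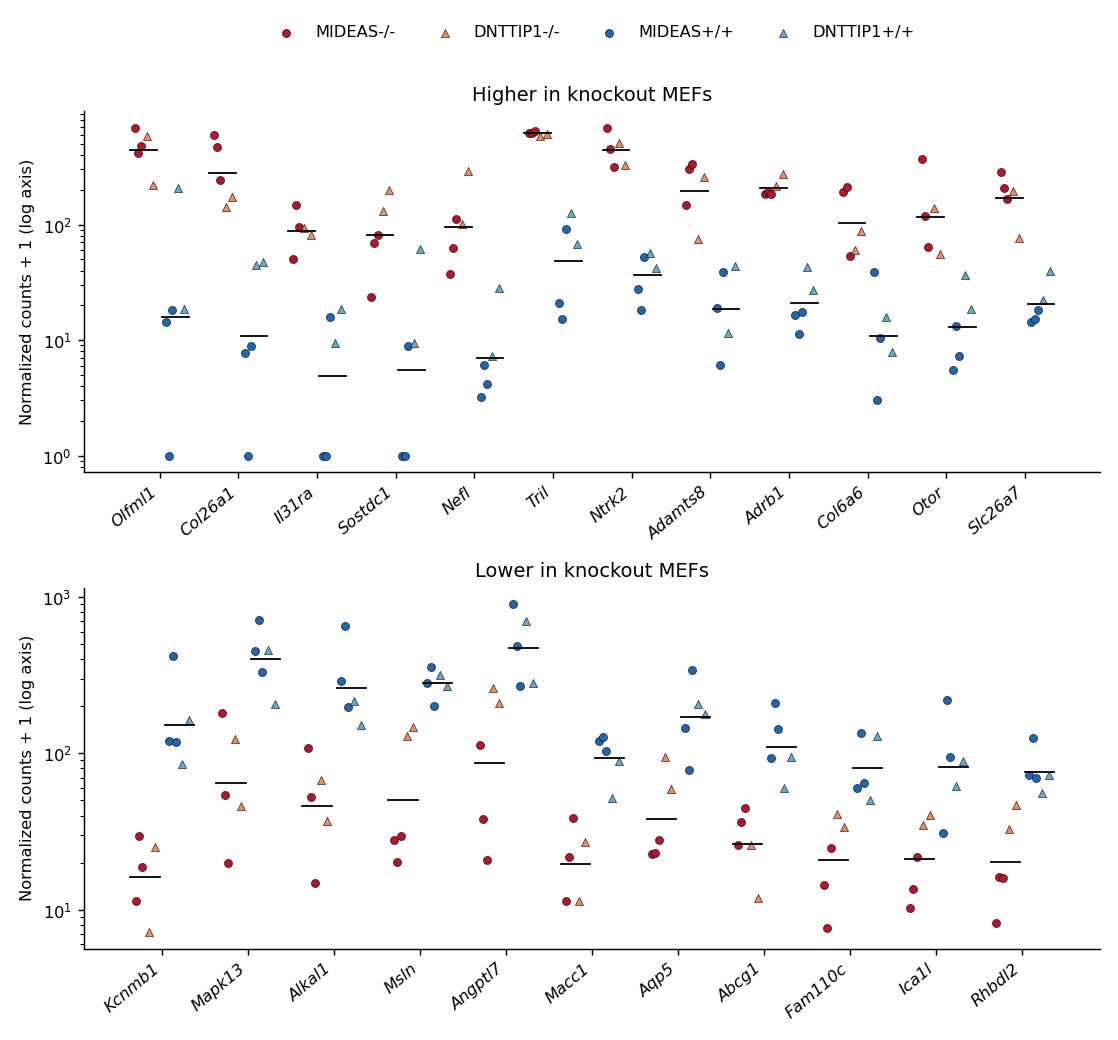
Normalized counts + 1 (log axis) in each library for the 12 genes with the largest increases (top) and 11 genes with large decreases (bottom) that were called, had a mean of at least 50 and did not overlap within either family; knockout libraries are red (circles MIDEAS, triangles DNTTIP1), wild types blue, and bars are means on the log scale of the 5 knockout and the 5 wild-type libraries. The knockouts of each family lie beyond the wild types of that family for every gene, and the 5 knockout points of Tril lie between 584 and 650.

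Wnt signalling genes were called at several levels of the pathway. Wnt ligands bind Frizzled receptors with the co-receptors LRP5 and LRP6 or the kinase-like receptors ROR1 and ROR2, and secreted antagonists of the SFRP and DKK families block them. Among the antagonists, 7 of 17 tested genes rose and none fell, with a list median of 1.14 (-0.02 over all genes). Sfrp2 had 2608, 1695 and 1413 normalized counts in MIDEAS-/- and 2409 and 1895 in DNTTIP1-/- lines, against 202, 241 and 590 in MIDEAS+/+ and 1506 and 635 in DNTTIP1+/+ lines. One wild-type library, DNTTIP1+/+ replicate 1, lay within the knockout range (log2 fold change 2.00, SE 0.38, limma adjusted p = 0.0176). Frzb, also an SFRP-type inhibitor, had 460, 334 and 331 in MIDEAS-/- and 595 and 717 in DNTTIP1-/- lines, against 174, 175 and 210 in MIDEAS+/+ and 198 and 213 in DNTTIP1+/+ lines (log2 fold change 1.26, limma adjusted p = 0.00376). Here no library overlapped. Sfrp4 (log2 fold change 1.91), Sfrp1 (0.95) and Sostdc1 (3.87), which binds LRP co-receptors and BMPs, rose as well, as did Dkk1 (3.14) and Notum (2.20), a secreted enzyme that removes the lipid of Wnt proteins; Dkk1 had between 12.9 and 51.2 normalized counts in the knockouts and between 0 and 12.7 in the wild types. The calls of Dkk1 and Notum (limma adjusted p = 0.061) were lost in 2 and 5 of the 10 fits that left out 1 library.

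Of 21 tested Wnt receptor genes, 7 rose and none fell, with a median of 0.22. Fzd4, a Frizzled that also binds norrin, had 2079, 2840 and 2392 normalized counts in MIDEAS-/- and 1848 and 2096 in DNTTIP1-/- lines, against 720, 373 and 819 in MIDEAS+/+ and 735 and 552 in DNTTIP1+/+ lines. Each knockout lay above the highest wild type (log2 fold change 1.85, SE 0.20, limma adjusted p = 0.00204). Ror1, a receptor for WNT5A, had 807, 970 and 834 in MIDEAS-/- and 756 and 582 in DNTTIP1-/- lines, against 265, 220 and 357 in MIDEAS+/+ and 287 and 217 in DNTTIP1+/+ lines (log2 fold change 1.55, SE 0.15, limma adjusted p = 0.00115). Lrp4, which binds sclerostin-type antagonists and agrin, had 789, 985 and 678 in MIDEAS-/- and 803 and 659 in DNTTIP1-/- lines, against 387, 269 and 307 in MIDEAS+/+ and 308 and 281 in DNTTIP1+/+ lines (log2 fold change 1.33, limma adjusted p = 0.00117). Lrp6 (0.52), Fzd9 (1.46), Fzd1 (0.79) and Lgr4 (0.62) also passed the test, Fzd1 in 6 of the 10 fits that left out 1 library. None of Fzd4, Ror1 and Lrp4 overlapped between knockouts and wild types.

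The Wnt ligands moved in both directions. Of 16 tested, 4 rose and 1 fell (median 0.65). Wnt11, a non-canonical ligand, had 587, 517 and 417 normalized counts in MIDEAS-/- and 496 and 670 in DNTTIP1-/- lines, against 126, 218 and 296 in MIDEAS+/+ and 137 and 291 in DNTTIP1+/+ lines (log2 fold change 1.40, limma adjusted p = 0.0151). Wnt2 (1.63), Wnt6 (1.38) and Wnt16 (1.01) were the others that rose, and Wnt10b fell (-0.99, adjusted p = 0.0874). Without MIDEAS-/- replicate 2, MIDEAS+/+ replicate 1, MIDEAS+/+ replicate 2 or DNTTIP1+/+ replicate 2, 2 ligands rose. Wnt6, Wnt16 and Wnt10b lost their calls in 7, 6 and 8 of the fits that left out 1 library. Of 26 effectors and targets, 7 rose and 2 fell. Those with the smallest p were Daam2 (0.73), a formin of the planar polarity branch, Tcf7l1 (0.53), a TCF factor that represses in the absence of beta-catenin, Tcf7 (-1.13), the TCF1 factor, and Prickle1 (0.60).

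**Figure D4:**
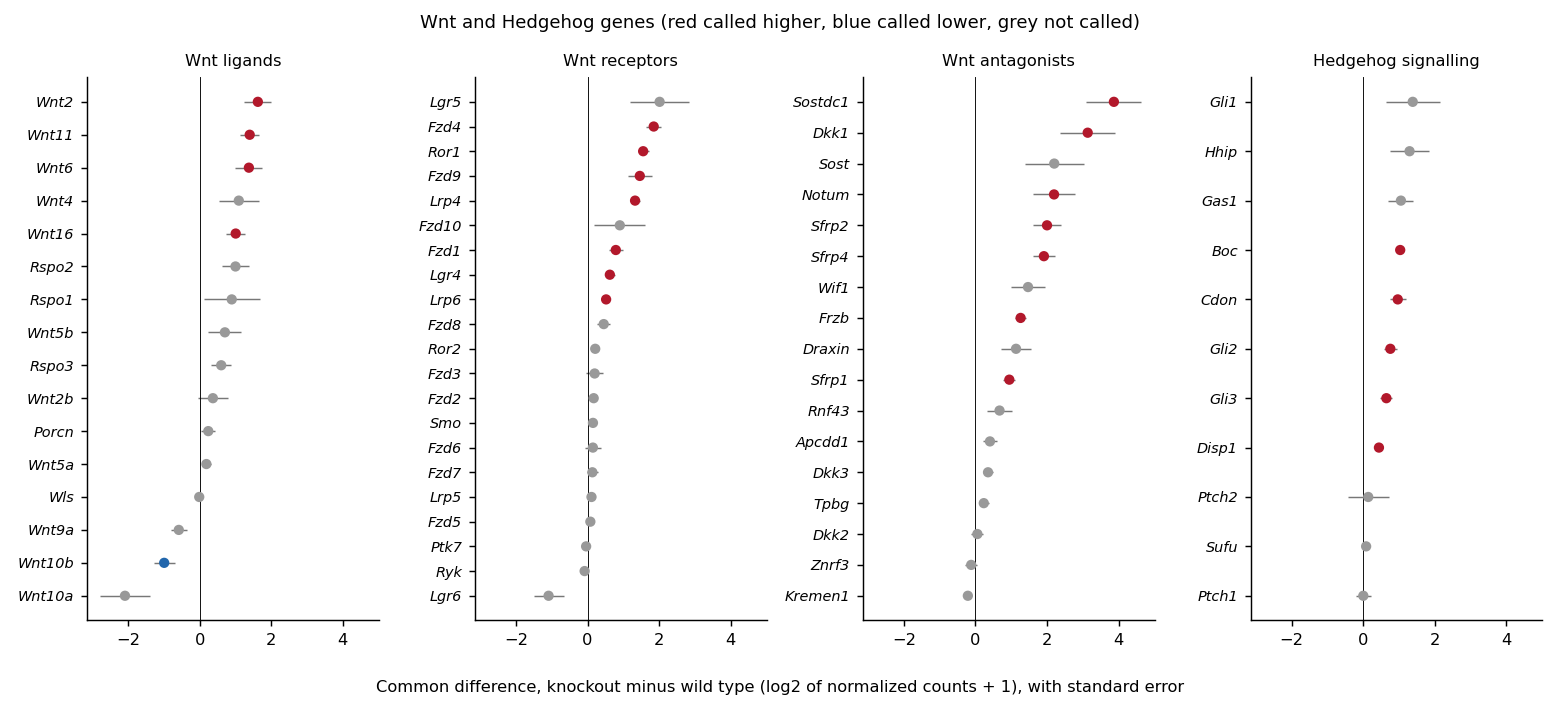
Common difference, knockout minus wild type (log2 of normalized counts + 1), of every tested gene on the Wnt ligand, receptor and antagonist lists and on the Hedgehog list; points are estimates, bars standard errors, red called higher, blue called lower and grey not called. Sostdc1 (3.87) and Dkk1 (3.14) are the highest of the called genes, all 7 called receptors are higher, and the Hedgehog genes called lie between 0.44 and 1.03.

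Hedgehog genes were called upward as well. The pathway starts when a Hedgehog ligand binds Patched together with the co-receptors BOC, CDON or GAS1, and ends in the GLI transcription factors. Of 11 tested genes 5 rose and none fell, with a median of 0.76. Boc had 2599, 2553 and 2373 normalized counts in MIDEAS-/- and 2453 and 2349 in DNTTIP1-/- lines, against 1107, 1052 and 1280 in MIDEAS+/+ and 1525 and 1117 in DNTTIP1+/+ lines. Both the knockouts and the wild types varied little, and the log2 fold change was 1.03 (SE 0.10, limma adjusted p = 0.00115). Cdon had 2734, 3134 and 3405 in MIDEAS-/- and 3251 and 2544 in DNTTIP1-/- lines, against 1808, 880 and 1803 in MIDEAS+/+ and 2279 and 1309 in DNTTIP1+/+ lines (log2 fold change 0.96, limma adjusted p = 0.0337). Gli2 (0.76) and Gli3 (0.65), the main activator and repressor of the pathway, and Disp1 (0.44), which releases the ligand, were the other genes that rose. The calls of Gli2 and Gli3 were lost in 3 and 7 of the fits that left out 1 library, and the list held between 2 and 6 called genes in these fits. Gli1, Ptch1 and Hhip, the targets that report on the pathway's activity, were not called, with log2 fold changes of 1.38 (Gli1), 0.00047 (Ptch1) and 1.29 (Hhip), with adjusted p of 0.369, 1.00 and 0.221 from limma.

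Cell adhesion and guidance genes were called mostly upward. Of 29 tested cadherins and protocadherins, 13 rose and 1 fell (median 0.60). Cdh4, R-cadherin, had 218, 515 and 283 normalized counts in MIDEAS-/- and 443 and 353 in DNTTIP1-/- lines, against 26.7, 36.8 and 54.0 in MIDEAS+/+ and 75.9 and 87.7 in DNTTIP1+/+ lines. The groups were apart, with a fold change of 6.63 (log2 2.73, SE 0.28, limma adjusted p = 0.00137). Dchs1, an atypical cadherin of the Fat and Dachsous polarity system, had 2629, 3902 and 3704 in MIDEAS-/- and 2842 and 3570 in DNTTIP1-/- lines, against 1206, 1146 and 1716 in MIDEAS+/+ and 1625 and 1594 in DNTTIP1+/+ lines (log2 fold change 1.19, limma adjusted p = 0.00345). Pcdh10 (1.63), Cdh26 (1.21) and Fat3 (2.18), a partner family of Dchs1, rose as well. The count of called cadherins lay between 9 and 14 higher genes with any 1 library removed.

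Of 18 tested ephrins and Eph receptors, 6 rose and none fell (median 0.38). Efnb3, ephrin-B3, had 210, 175 and 144 normalized counts in MIDEAS-/- and 74.2 and 99.5 in DNTTIP1-/- lines, against 31.2, 25.5 and 27.4 in MIDEAS+/+ and 25.3 and 47.8 in DNTTIP1+/+ lines (log2 fold change 2.07, limma adjusted p = 0.00555). Efna5, ephrin-A5, had a log2 fold change of 0.74, and Ephb4, the receptor of ephrin-B2, one of 0.41. Of 30 semaphorins, plexins and neuropilins, 5 rose (between 3 and 8 with 1 library removed) and 1 fell. Sema5a (1.68), Sema3g (1.49) and Plxna2, a receptor for class 6 semaphorins (1.16), rose, and Sema7a, a membrane-anchored semaphorin, fell (-1.43). Of 18 netrins, slits and their receptors, 6 rose and 1 fell; 2 rose in the 7 libraries without Y-linked reads, and 2 without MIDEAS-/- replicate 2, DNTTIP1-/- replicate 1, MIDEAS+/+ replicate 1 or DNTTIP1+/+ replicate 2. Ntn1 (0.81) and Ntn3 (0.68) rose and Ntn4, a basement membrane netrin, fell (-0.71, limma adjusted p = 0.0542). The calls of Ntn1 and Ntn4 were lost in 1 and 4 of the 10 fits that left out 1 library.

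Genes of the extracellular matrix and its remodelling were called mostly upward. Of 42 tested collagen genes, 7 rose and none fell (median 0.19), led in p by Col23a1 (log2 fold change 2.68), Col26a1 (4.70), Col6a6 (3.24) and Col9a2 (2.15), a chain of the cartilage collagen IX. Of 37 metalloproteinases and inhibitors, 9 rose and 2 fell, and those with the smallest p were of the ADAMTS family, enzymes that cut proteoglycans and other matrix proteins. Adamts9 had 977, 1926 and 1497 normalized counts in MIDEAS-/- and 1123 and 1582 in DNTTIP1-/- lines, against 357, 401 and 829 in MIDEAS+/+ and 460 and 490 in DNTTIP1+/+ lines (log2 fold change 1.51, limma adjusted p = 0.00815). Adamts15 had 474, 334 and 386 in MIDEAS-/- and 219 and 143 in DNTTIP1-/- lines, against 24.5, 8.18 and 50.8 in MIDEAS+/+ and 58.0 and 68.2 in DNTTIP1+/+ lines (log2 fold change 3.05, limma adjusted p = 0.0139). For both, each knockout lay above each wild type. Adamts8 and Adamts19 had log2 fold changes of 3.40 and 2.92. Of 46 laminins, fibulins and elastic fibre genes, 7 rose and 4 fell. Of 15 small leucine-rich proteoglycans, 2 rose, Dcn (0.98) and Epyc (2.34), and the call of Epyc was lost in 7 of the fits that left out 1 library. The number of these proteoglycan genes that rose was 11 without DNTTIP1+/+ replicate 1, 6 without DNTTIP1-/- replicate 2, 7 with the Y-linked covariate, and 1 without any one of 7 other libraries.

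Growth factor genes moved in a less uniform way. Of 18 genes of the insulin-like growth factor axis, 4 rose and none fell. Igf1 had 2909, 2204 and 2268 normalized counts in MIDEAS-/- and 1912 and 1620 in DNTTIP1-/- lines, against 811, 450 and 757 in MIDEAS+/+ and 1165 and 795 in DNTTIP1+/+ lines (log2 fold change 1.49, SE 0.23, limma adjusted p = 0.00711). Igf2 (0.72) and the binding proteins Igfbp5 (1.08) and Igfbp3 (1.24) rose as well, and the call of Igfbp3 was lost in 7 of the fits that left out 1 library. Of 25 angiogenic factors and receptors, 7 rose and 4 fell: Angpt2, a ligand of the TIE2 receptor, had 678, 469 and 559 in MIDEAS-/- and 267 and 484 in DNTTIP1-/- lines, against 183, 214 and 159 in MIDEAS+/+ and 119 and 174 in DNTTIP1+/+ lines (log2 fold change 1.49, limma adjusted p = 0.004). Hgf, hepatocyte growth factor (1.13), and Tek, which encodes TIE2 (2.27), rose, and Angptl4, an inhibitor of lipoprotein lipase, fell (-1.63). Of 29 FGF pathway genes, 5 rose and 1 fell, including Fgfr3 (1.43) and Fgf1 (1.56), the call of which was lost in 8 of these fits; between 1 and 5 genes of this list rose with 1 library removed. Of 15 genes of the EGF family and its receptors, 1 rose (6.67%, against 5.21% of all tested genes) and none fell. Their median was -0.35, with 5 positive and 10 negative values.

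BMP and TGF-beta genes were called in both directions, 8 of 40 higher and 6 lower. With 1 library removed between 5 and 12 were higher and between 1 and 7 lower, with the 1 lower call found without MIDEAS-/- replicate 2. Gdf10, also named BMP3B, had 619, 544 and 714 normalized counts in MIDEAS-/- and 602 and 428 in DNTTIP1-/- lines, against 35.7, 20.4 and 93.9 in MIDEAS+/+ and 221 and 99.4 in DNTTIP1+/+ lines. The lowest knockout lay above the highest wild type (log2 fold change 3.04, SE 0.48, limma adjusted p = 0.00744). Smad9, which transmits BMP signals, rose (1.60), and Inhbb, a subunit of activin B, fell (-0.80). Of 16 Notch genes, 2 rose (12.5%) and 1 fell (6.25%), against 5.21% and 2.97% of all tested genes. Of 16 receptors and regulators of the interleukin-6 family, 4 rose and none fell, among them Lifr, the receptor of leukemia inhibitory factor (1.05), Il31ra (4.18) and Il27ra (1.35). Of 30 chemokines and inflammatory cytokines, 4 rose and 5 fell (median -0.52): Il33, an alarmin, rose (2.11), and Ccl2 (-0.93) and Il11 (-1.40) fell. The calls of Ccl2 and Il11 were lost in 4 and 6 of the 10 fits that left out 1 library. In these fits between 1 and 4 genes of the list rose and between 1 (without MIDEAS-/- replicate 2 or DNTTIP1+/+ replicate 2) and 9 (without DNTTIP1+/+ replicate 1) fell.

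Imprinted genes, which are transcribed from 1 parental copy and many of which act on growth of the embryo, were called in 1 direction. Of 42 tested, 12 rose and none fell (28.6%, against 5.21% of all genes), with a median of 0.36. Dlk1, a paternally expressed Notch-like protein, had 3446, 2233 and 2621 normalized counts in MIDEAS-/- and 3546 and 3605 in DNTTIP1-/- lines, against 1607, 969 and 1415 in MIDEAS+/+ and 2161 and 1825 in DNTTIP1+/+ lines (log2 fold change 0.98, SE 0.15, limma adjusted p = 0.00744). The groups did not overlap. Zim1 had 1573, 1880 and 1777 in MIDEAS-/- and 773 and 1328 in DNTTIP1-/- lines, against 981, 595 and 603 in MIDEAS+/+ and 297 and 426 in DNTTIP1+/+ lines (log2 fold change 1.38, limma adjusted p = 0.00421). Here DNTTIP1-/- replicate 1 lay under the highest MIDEAS+/+ library, but both families differed. Plagl1, a zinc finger regulator of other imprinted genes (1.18), Igf2 (0.72), Peg3 (0.70) and Cdkn1c, a cell-cycle inhibitor (0.62), rose too. Igf2, Peg3 and Cdkn1c were not called in the 7 libraries without Y-linked reads, and the call of Peg3 (limma adjusted p = 0.053) was lost in 5 of the 10 fits that left out 1 library. The number of imprinted genes that rose lay between 8 and 12 with any 1 library removed, was 9 in the 7 libraries without Y-linked reads and was 12 with edgeR.

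Some neuronal and channel genes rose, while most did not pass the test. Of 40 synaptic and neuronal adhesion genes, 10 rose and none fell (median 0.68), among them Cntn1 (1.98), contactin-1. Of 39 potassium and calcium channel genes, 8 rose and 2 fell, with Kcna6 (2.55) and Kcnj8 (1.75) among the increases and Kcnmb1 (-3.23) among the decreases. Nefl, the light neurofilament chain, had 36.1, 61.2 and 112 normalized counts in MIDEAS-/- and 99.9 and 292 in DNTTIP1-/- lines, against 2.23, 5.11 and 3.13 in MIDEAS+/+ and 6.33 and 27.3 in DNTTIP1+/+ lines (log2 fold change 3.76, limma adjusted p = 0.00349). Its neighbour Nefm, the exons of which overlap those of Nefl on the other strand in the annotation, rose by 2.56. Of 11 tested neuron markers 4 rose and 1 fell, while Rbfox3, Snap25, Nefh and Elavl3, which define neurons, had at most 8 normalized counts in any library. Other genes of that list were well above 0, with up to 1451 normalized counts of Tubb3, 1170 of Map2, 751 of Gap43 and 420 of Stmn2. The markers that rose numbered 2 without MIDEAS-/- replicate 2, MIDEAS-/- replicate 3 or DNTTIP1+/+ replicate 2. Of 12 amine receptors 2 rose and 2 fell (16.7% each, against 5.21% and 2.97% of all tested genes). Of 20 genes of the p38 and JNK pathways 2 rose (10%) and 1 fell (5%). Map2k6 and Map3k5 (1.04), an upstream kinase of both pathways, were higher and Mapk13 was lower.

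Spindle and kinetochore genes were called higher at close to the share of all tested genes (4.08%, against 5.21%). Of 49 tested spindle and kinetochore genes, 2 rose, Nusap1 (0.48, limma adjusted p = 0.0486) and Spc25 (0.33, adjusted p = 0.0726), and none fell, with a median of 0.18 and a positive value for 48 of the 49. The calls of Nusap1 and Spc25 were lost in 4 and 6 of the 10 fits that left out 1 library. The count depended on single libraries: 19 rose and 1 fell without MIDEAS-/- replicate 1, and none rose without MIDEAS-/- replicate 3, DNTTIP1-/- replicate 1 or DNTTIP1+/+ replicate 2. None of 40 DNA replication genes was called, although 37 had a positive value (median 0.14), and 4 rose without MIDEAS-/- replicate 1. Of 11 septins, the GTP-binding proteins that build rings and filaments at the division site, 3 rose. Sept6 had 1521, 1249 and 1316 normalized counts in MIDEAS-/- and 1289 and 1469 in DNTTIP1-/- lines, against 844, 623 and 779 in MIDEAS+/+ and 945 and 832 in DNTTIP1+/+ lines (log2 fold change 0.77, limma adjusted p = 0.00454), and Sept4 had a log2 fold change of 1.61. None of 20 p53 and senescence genes and none of 31 interferon-stimulated genes was called, against 8.18% of all tested genes.

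Metabolic lists went in opposite directions. Of 23 tested glycolysis and hypoxia genes, 5 fell and none rose (21.7%, against 2.97% of all genes), with a median of -0.17. Eno1, enolase, had 6889, 6060 and 5983 normalized counts in MIDEAS-/- and 8992 and 8954 in DNTTIP1-/- lines, against 8697, 10522 and 9579 in MIDEAS+/+ and 11397 and 12247 in DNTTIP1+/+ lines (log2 fold change -0.52, SE 0.09, limma adjusted p = 0.013). The levels were higher in the DNTTIP1 family in both genotypes, so that DNTTIP1-/- MEFs overlapped MIDEAS+/+ MEFs while neither family overlapped in itself. Slc2a1, the glucose transporter GLUT1, fell too (-0.45). Without MIDEAS-/- replicate 2, MIDEAS-/- replicate 3 or DNTTIP1+/+ replicate 2, 3 genes of the list fell. Of 23 cholesterol synthesis genes, 6 rose and none fell (median 0.44), among them Dhcr7, the last enzyme of the pathway (0.85), and Idi1 (0.89). Their number lay between 2 (without MIDEAS-/- replicate 3 or DNTTIP1-/- replicate 1) and 11 (without MIDEAS-/- replicate 1) with any 1 library removed, and the call of Idi1 was lost in 5 of those fits. Of 22 complement genes 1 rose and 1 fell (4.55% each, against 5.21% and 2.97% of all tested genes), and of 4 tested germline genes 1 rose.

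Transcription factors that pattern the mesenchyme included 11 increases and 1 decrease among 73 tested (median 0.32). Ebf3 had 1748, 1491 and 1230 normalized counts in MIDEAS-/- and 1500 and 1334 in DNTTIP1-/- lines, against 762, 575 and 738 in MIDEAS+/+ and 762 and 716 in DNTTIP1+/+ lines (log2 fold change 1.04, SE 0.12, limma adjusted p = 0.00214), and no library overlapped. Eya2, a transcriptional coactivator with phosphatase activity, had a log2 fold change of 1.38. None of 36 tested Hox genes, which carry the position along the body axis, was called, against 8.18% of all tested genes. Their median was 0.12, and 1 rose without DNTTIP1+/+ replicate 2.

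Marker lists of cell types moved in both directions, and in bulk RNA fewer cells of a type and less RNA per cell cannot be told apart. Smooth muscle and myofibroblast markers were lower: 6 of 14 fell and none rose, and their sum lay between 10999 and 16386 normalized counts in the knockouts, against between 16511 and 24379 in the wild types. Myh11, smooth muscle myosin heavy chain, had 625, 551 and 357 in MIDEAS-/- and 399 and 1042 in DNTTIP1-/- lines, against 1352, 3165 and 2080 in MIDEAS+/+ and 1159 and 1891 in DNTTIP1+/+ lines (log2 fold change -1.71, limma adjusted p = 0.0169). Des, desmin, fell by 1.33 and Cnn1, calponin, by 0.51 on the log2 scale. The number of these markers that fell was 2 of 14 in the 7 libraries without Y-linked reads, lay between 2 and 7 with any 1 library removed, and the call of Cnn1 was lost in 6 of those fits. Of 16 skeletal muscle markers 2 fell, Acta1 (-1.83) and Des, which is also on the smooth muscle list, while 12 of the 16 had a positive value (median 0.40), none of them called, and none of 11 cardiomyocyte markers was called. The part of muscle-like cells in the decrease of Kcnmb1 was not tested.

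Of 16 tested epithelial and keratinocyte markers, 5 were called lower and none higher, with a median of -0.95. Of the 16, 12 had a negative and 4 a positive value. Pkp1, plakophilin-1 of desmosomes, had 4.13, 7.98 and 1.98 normalized counts in MIDEAS-/- and 12.4 and 9.84 in DNTTIP1-/- lines, against 186, 54.2 and 52.4 in MIDEAS+/+ and 31.6 and 111 in DNTTIP1+/+ lines (log2 fold change -3.33, SE 0.55, limma adjusted p = 0.00884). Sfn, also named 14-3-3 sigma, had 100, 167 and 127 in MIDEAS-/- and 115 and 197 in DNTTIP1-/- lines, against 382, 590 and 622 in MIDEAS+/+ and 267 and 944 in DNTTIP1+/+ lines (log2 fold change -1.90, limma adjusted p = 0.0101). Krt7 had a log2 fold change of -2.35. Epcam, Krt5 and Krt14 stayed at or under 19 normalized counts in all libraries, and Cdh1 at or under 55. Other genes of the list were more abundant, Krt19 between 213 and 905, Perp between 193 and 733 and Krt18 between 35.1 and 314. The list summed to between 900 and 2712 normalized counts in the knockouts, against between 1673 and 3717 in the wild types.

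All called markers of skeletal and fat lineages were higher. Of 23 chondrocyte and osteoblast markers 7 rose and none fell (median 0.68), with sums between 17285 and 23398 normalized counts in the knockouts, against between 13805 and 17168 in the wild types. Sox9, the master regulator of cartilage, had 878, 817 and 1011 in MIDEAS-/- and 1712 and 1021 in DNTTIP1-/- lines, against 585, 414 and 564 in MIDEAS+/+ and 837 and 625 in DNTTIP1+/+ lines (log2 fold change 0.83, limma adjusted p = 0.0176), so that 1 wild-type library lay above the lowest knockout. Dmp1, of osteocytes, had a log2 fold change of 2.03. Their number lay between 2 and 7 with any 1 library removed. All of 4 called adipocyte markers of 9 tested rose: Zfp423, a factor of preadipocytes, had 347, 444 and 331 normalized counts in MIDEAS-/- and 378 and 378 in DNTTIP1-/- lines, against 82.5, 74.6 and 125 in MIDEAS+/+ and 160 and 134 in DNTTIP1+/+ lines (log2 fold change 1.75, SE 0.19, limma adjusted p = 0.00204). Lpl, lipoprotein lipase (1.56), and Cebpa (1.24) were others. The count was 4 in each fit that left out 1 library, and adipocyte marker sums lay between 2437 and 3927 normalized counts in the knockouts, against between 1185 and 2314 in the wild types. Of the 9, 6 had a positive and 3 a negative value (median 0.32). Fabp4 had 97.1, 49.9 and 74.2 in MIDEAS-/- lines, against 172, 158 and 103 in MIDEAS+/+ lines. In DNTTIP1-/- lines it had 154 and 82.0, against 220 and 73.1 in DNTTIP1+/+ lines. Adipoq, Plin1, Retn, Cfd, Adig, Cidec and Lep had at most 6.33 in any library. Of 9 pericyte markers 4 rose, among them Kcnj8 (1.75) and Abcc9 (1.39), the 2 parts of a potassium channel sensitive to ATP. Of these 9 pericyte markers, 5 had a positive and 4 a negative value (median 0.35). The sums of the pericyte list overlapped, between 11281 and 14211 normalized counts in the knockouts and between 10526 and 13791 in the wild types.

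The other lineages gave at most 1 call per list in each direction. Of 12 fibroblast markers 1 rose (Dcn, 8.33%) and of 8 endothelial markers 1 (Tek, 12.5%). Of 10 Schwann cell and glia markers 1 rose and 1 fell (10% each). Over all tested genes 5.21% rose and 2.97% fell. Cdh5, Pecam1 and Cldn5, which define endothelium, had at most 18 normalized counts, whereas other genes of that list were higher, Flt1 between 812 and 2121, Erg up to 733, Emcn up to 468 and Kdr up to 337. None of 17 macrophage markers was called, but all 17 had a negative value, with a median of -0.74 (-0.61 in the MIDEAS and -0.98 in the DNTTIP1 family). Their sum lay between 369 and 2665 normalized counts in the knockouts, against between 738 and 8081 in the wild types, where the highest value was that of MIDEAS+/+ replicate 1. None of the 2 tested erythroid markers was called, and the globin genes had at most 12 normalized counts. None of the 5 tested sex-linked genes was called.

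**Figure D5:**
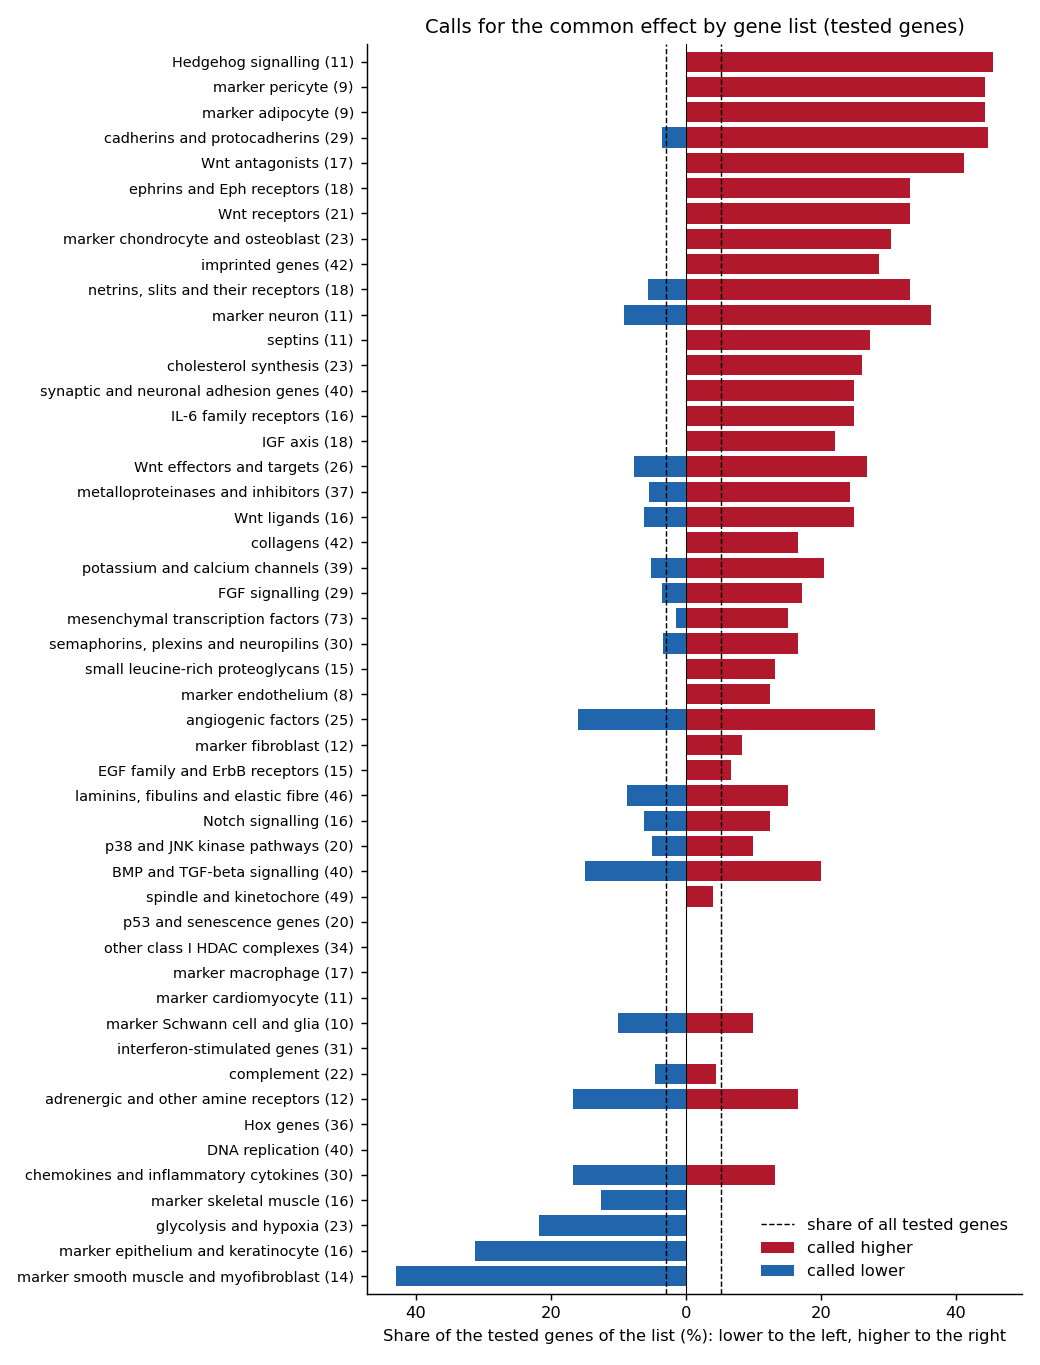
Share of the tested genes of each list (number in parentheses, lists with at least 8 tested genes) that were called higher (red, to the right) or lower (blue, to the left) in the knockouts, with the share of all tested genes as dashed lines (5.21% higher, 2.97% lower). Hedgehog genes (45.5% higher) and cadherins (44.8% higher) have the largest shares of increases, and smooth muscle markers (42.9% lower) the largest share of decreases.

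In limma no gene set the families apart after adjustment, so the genes named here are those with the smallest unadjusted p. The smallest p for a difference between families was that of Hmx1, a homeobox factor of sensory organs and cranial nerves. It had 51.6, 106 and 38.6 normalized counts in MIDEAS-/- MEFs, against 2.23, 3.07 and 5.48 in MIDEAS+/+ MEFs, while in the other family it had 4.12 and 8.75 in DNTTIP1-/- lines, against 27.4 and 62.4 in DNTTIP1+/+ lines. Its own-family log2 fold changes of 3.79 and -2.59 point in opposite directions (unadjusted p = 2.8e-05 from limma, not called after adjustment), and its common value of 1.24 (standard error 1.03) describes neither family. Dnttip1, Msln and Nipal1, a magnesium transporter (-2.41 in the MIDEAS and -0.56 in the DNTTIP1 family), followed.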

How the data were processed

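Total RNA was extracted from the MEFs and, per the methods of the study, enriched for mRNA. The 10 libraries (5 knockout, 5 wild type) were then sequenced. Per the labels and the methods of the study, reads were trimmed with Trim Galore 0.4.5 and cutadapt 1.11, aligned to mm10 with STAR 2.5.2b and handled with SAMtools 1.3.2 and Picard, by which duplicates were removed. The deposited signal values are counts that the authors divided by DESeq2 size factors. Sheets with the authors' own fold changes and p-values were not used. The reads were recovered as whole numbers (tolerance 0.01). They gave the read totals and entered the edgeR 4.0.16 and DESeq2 1.42.0 alternatives and those with TMM or library total scaling. The main fit did not use them.

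The common effect was fitted with limma 3.58.1 (R 4.3.3; trend and robust options) on log2(value + 1) with family and knockout as terms, over 16227 of 53801 genes with a mean of at least 10, and a call needed a Benjamini-Hochberg adjusted p under 0.1. The interaction was the MIDEAS minus the DNTTIP1 difference. Fold changes of low genes are understated on this scale. Counting by strand is not given in the sources used here, so reads of overlapping genes cannot be told apart.

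The members and gene lists were chosen with earlier results of these data known. Named genes were the complex, the 12 largest increases and decreases with a mean of at least 50 and no overlap within either family, up to 4 members with the smallest p of each list, and the 4 genes with the smallest interaction p. Dkk1, Notum, Fzd1, Fzd9, Lgr4, Gli1, Gli3, Ptch1, Hhip, Cdkn1c, Peg3, Wnt10b and Fat3 were chosen after their values were seen. One gene that the rule names is not reported here. Alternatives covered pseudocounts, filters, scaling, designs and each library left out; the fit of 7 libraries without Y-linked reads was added after seeing the data. Intervals of counting error are not given, since p-values rest on the spread between libraries.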

Additional observations from a re-analysis of the deposited data

Results flagged for a closer look

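Among 64 groups of values tested for a sample far from the others, 3 were found, and chance gives about 1 in 20 groups. MIDEAS-/- replicate 2 held 19761295 reads, against a median of 13681828 over the 5 knockout libraries. The same library had reads in 25886 genes, against a median of 22460. On the wild-type side, MIDEAS+/+ replicate 3 was high as well, with 17660995 reads and reads in 25171 genes. MIDEAS-/- replicate 1 had 9.38% of its reads in its 10 most abundant genes, against a median of 5.74%. The part of MIDEAS-/- replicate 2 and MIDEAS-/- replicate 1 in the common effect is given by the fits without them, 729 and 1740 called genes.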

How the results depend on the processing

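The common effect gave 1327 called genes. The count was 786 at an adjusted p under 0.05, 2098 with DESeq2, 2017 with the replicate block and 0 in the DNTTIP1 family alone, and between 729 and 1854 when 1 library was left out; the cause was not tested. In their deviations from the group means, same-numbered libraries correlated at 0.21, -0.11 and -0.05 in the MIDEAS family. Differently numbered libraries of that family correlated at between -0.34 and 0.48, highest for MIDEAS-/- replicate 2 with MIDEAS+/+ replicate 3. In the DNTTIP1 family same-numbered libraries correlated at 0.66 in both pairs (differently numbered libraries -0.66). These are 1 correlation, since the 2 libraries of a group lie equally far on either side of its mean. Both replicate 1 libraries of that family carry Y-linked reads and both replicate 2 libraries do not. Since not every pair of the MIDEAS family is positive, the numbers were not taken to pair the libraries. The interaction gave 12 calls with DESeq2 and 0 with limma and edgeR. The log2 fold change of Hdac1, -0.03, was 0.0304 in the DNTTIP1 family alone, 0.0327 without MIDEAS-/- replicate 2, 0.0073 without MIDEAS+/+ replicate 1 (between -0.0686 and 0.0327 over all fits without 1 library) and 0.016 in the libraries without Y-linked reads; that of Hmx1 was -2.59 in the DNTTIP1 family alone. Of the 132 genes examined, 127 lost the call in the DNTTIP1 family alone, 25 in the MIDEAS family alone and 24 in the libraries without Y-linked reads. None lost it under other pseudocounts or TMM scaling.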
